A study of Mus musculus with 5 samples.

Results

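Glucose transporters, hexokinases and glucose-6-phosphatases set how much glucose enters a cell and whether it is kept there as glucose-6-phosphate. The 8 genes described here are Slc2a1, Slc2a2, Slc2a3, Hk1, Hk2, Hk3, G6pc2 and G6pc3. They were chosen by name: every probe that was not a control and whose gene name in the array tables was one of these was taken. This gave 10 probes among the 39429 of the array, with 2 probes each for Hk1 and G6pc3 and 1 for each other gene. They were measured in MIN6, a mouse insulinoma line that secretes insulin and stands in for pancreatic beta cells in many studies. Cells had been incubated with exosomes, small extracellular vesicles, purified from muscle kept ex vivo. In the EXO-STD group (n = 2) the muscle came from mice fed a standard diet, and in the EXO-HP group (n = 3) from mice fed a high fat diet. The mice's age, strain and number, the dose and the time of exposure are not given in the sources used here, and cells without vesicles were not analysed here. The titles call the arrays biological replicates without saying whether cultures or mice were separate, so each p-value reflects only the spread among these arrays, part of which may be technical.

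Glucose enters cells by facilitated diffusion through GLUT proteins. Slc2a1 encodes GLUT1, the widely expressed high-affinity transporter, Slc2a2 encodes GLUT2, the low-affinity transporter of rodent beta cells and liver, and Slc2a3 encodes GLUT3, the high-affinity transporter best known from neurons. Hexokinases then trap glucose as glucose-6-phosphate, and normal beta cells are known for keeping the high-affinity hexokinases low, since these are saturated at resting blood glucose and would uncouple insulin release from the glucose level. Glucose-6-phosphatases catalyse the reverse step in the endoplasmic reticulum: G6pc2 encodes the islet enzyme and G6pc3 the ubiquitous one.

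No member passed the test for a difference between the groups. Of the 8 genes, 6 (8 of the 10 probes) passed the filter on dim probes and were tested, and the adjusted p-value from limma with Benjamini-Hochberg adjustment over all 31945 tested probes passed 0.05 for none of them. Of all tested probes 0 (0%) passed it. An unadjusted p under 0.05 was reached by 1797 probes (5.63%) and by none of the members. The 2 genes left untested were Slc2a3 and Hk2, whose signals were not well above background on most or all arrays. The smallest unadjusted p of a member was 0.158, for Slc2a1, and the smallest adjusted p of a member under any alternative was 0.69 in limma. By sign alone, 4 of 8 tested member probes were lower in EXO-HP, against 37.1% of all tested probes, and 7 were lower when arrays were scaled to their median. The share of all tested probes depends on signal. Over 10 equal classes by mean signal, 10.4% were lower in the dimmest and 59.6% in the brightest.

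EXO-STD 1, EXO-STD 2 and EXO-HP 1 lay on slide 1, and EXO-HP 2 and EXO-HP 3 on slide 2, so only EXO-HP 1 can be set against EXO-STD within a slide. Between 71.5% and 73.7% of probes were well above background on slide 1, against 91.7% on EXO-HP 2 and 81.4% on EXO-HP 3, and dim probes read higher on slide 2. All 15 beta cell markers, among them Ins1, Ins2 and the members Slc2a2 and G6pc2, were well above background on all 5 arrays. So were 26952 of the 39429 probes of the array. Markers of other cell types passed in part: 5 of 7 for other islet cells, 5 of 7 for macrophages and granulocytes, and 8 of 15 for skeletal muscle. It was 3 of 6 for hepatocytes, 3 of 7 for fibroblasts, 2 of 5 for endothelium and 2 of 7 for exocrine pancreas. Passing this criterion therefore does not by itself identify beta cells. A probe of a muscle transcript stood out on EXO-HP 1: the signal of Myl1, a myosin light chain of fast muscle, was -0.40 against -8.76 to -7.84 on the other 4 arrays. Myl1 has 2 probes, neither of which passed the filter, and this is the one of higher mean signal, a mean that its value on EXO-HP 1 raises.

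**Figure D1:**
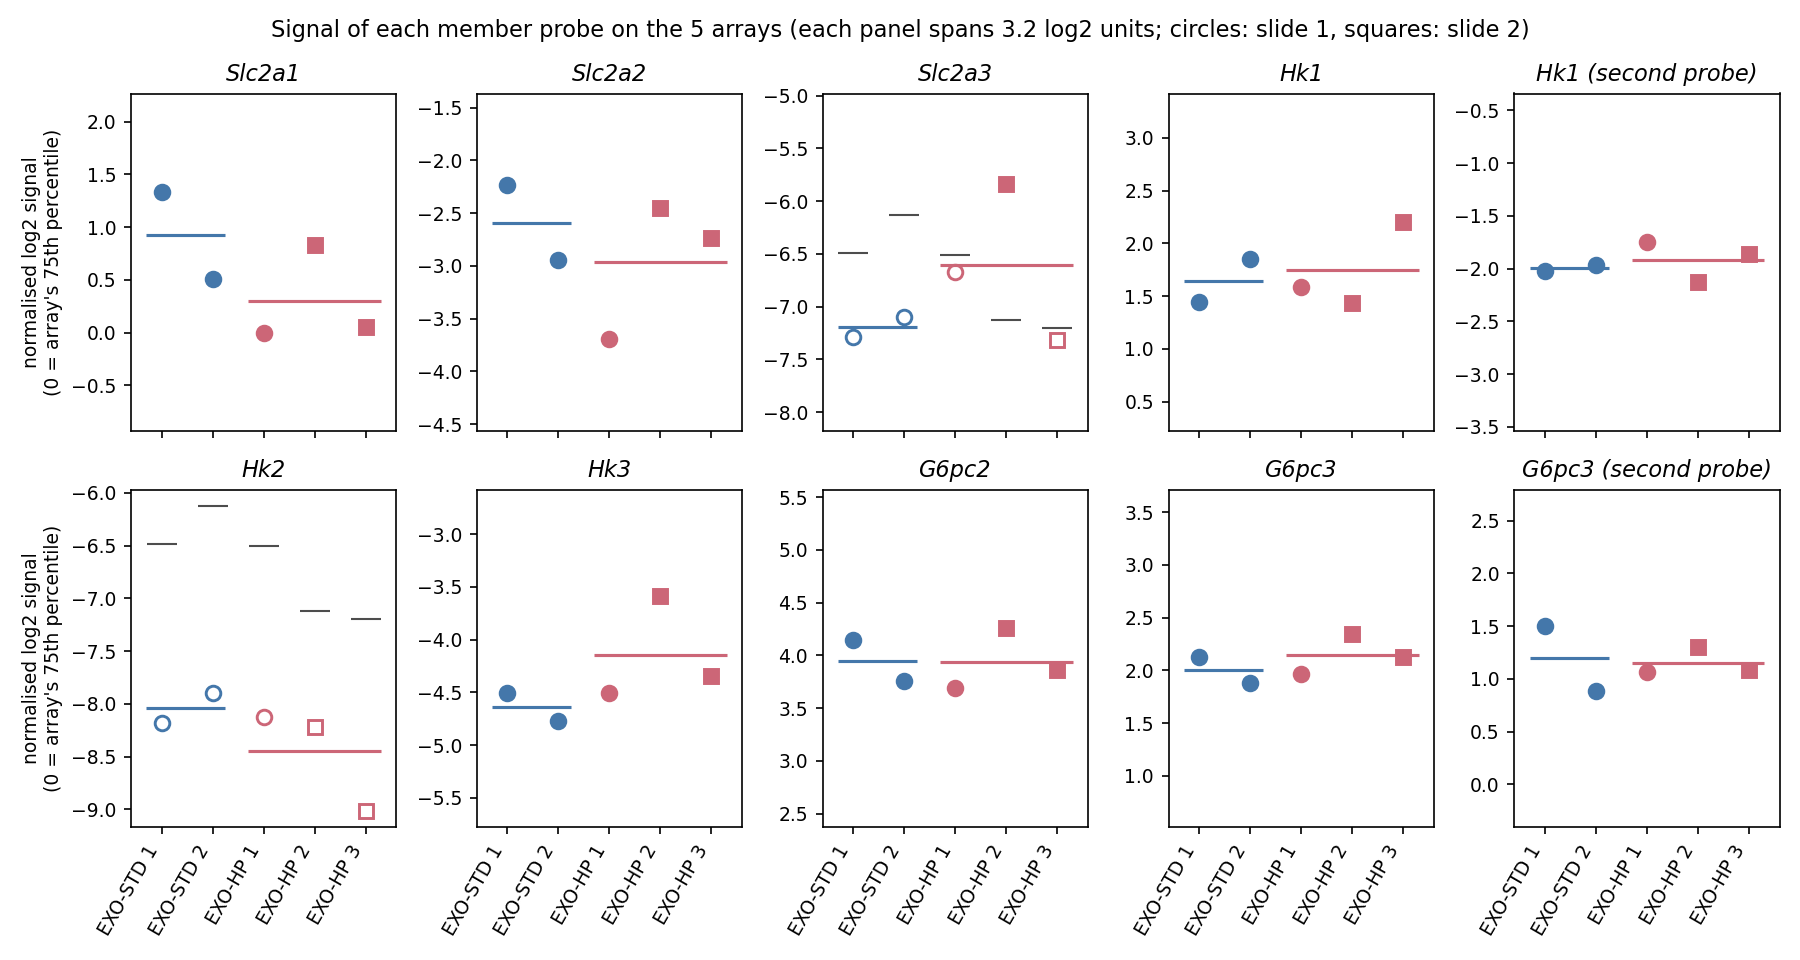
Normalised log2 signal of the 10 member probes on each array, where 0 is the array's 75th percentile. Blue marks EXO-STD and red EXO-HP, circles slide 1 and squares slide 2, horizontal lines are group means, open symbols mark signals not well above background, and grey dashes in the Slc2a3 and Hk2 panels mark the lowest signal well above background on each array. All 5 points of Hk2 and 4 of 5 points of Slc2a3 are open, and the groups overlap in every tested panel except that of Hk3.

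Signals below are log2 processed intensities minus the array's 75th percentile, so that 0 is the 75th percentile and 1 unit is a doubling. Probes differ in how well they bind, so a level is compared between arrays for 1 probe and never between probes. Probe positions are given on mm9, the build of the array design, and the exon and UTR annotation of that build was not used here.

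Among the transporters, GLUT1 and GLUT2 transcripts were measured on every array. Slc2a1, read by a probe at chr4:118809864-118809923 on the plus strand, had signals of 1.33 and 0.51 on EXO-STD 1 and 2 and of 0.00, 0.83 and 0.06 on EXO-HP 1, 2 and 3. EXO-STD 1 was highest, EXO-HP 1 and EXO-HP 3 were lowest, and EXO-HP 2 lay between the EXO-STD arrays, so the groups overlapped. On the scanner's linear scale these were processed intensities of 4820 and 3258 against 1683, 4034 and 2152. The group means were 0.92 ± 0.58 (SD, n = 2) and 0.30 ± 0.47 (SD, n = 3), and the log2 fold change was -0.63 (SE 0.38, 95% interval -1.58 to 0.33, limma adjusted p = 1.00). That interval runs from 2.99-fold lower to 1.26-fold higher in EXO-HP. The EXO-STD arrays alone differed by 0.82, more than the group means did. The fold change was -0.21 without EXO-STD 1, -1.04 without EXO-STD 2 and -0.89 without EXO-HP 2. It was negative under all 14 alternatives, some of which give the same value by design. Without EXO-HP 2 its interval was -1.75 to -0.03 and the adjusted p in limma was still 1.00.

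Slc2a2, read at chr3:28627016-28627075 on the plus strand, had signals of -2.24 and -2.94 on the EXO-STD arrays and -3.70, -2.46 and -2.74 on EXO-HP 1, 2 and 3. EXO-HP 1 was lowest by a wide margin, and the other EXO-HP arrays lay between the EXO-STD arrays. The group means were -2.59 ± 0.50 (SD, n = 2) and -2.96 ± 0.65 (SD, n = 3), a log2 fold change of -0.37 (SE 0.44, 95% interval -1.48 to 0.73, limma adjusted p = 1.00). This difference rested on EXO-HP 1: without it the log2 fold change was -0.01. It was -0.02 without EXO-STD 1 and -0.73 without EXO-STD 2. With slide as a block, which leaves EXO-HP 1 as the only EXO-HP array compared, the value was -1.11 (95% interval -2.16 to -0.06, limma adjusted p = 1.00), and slide 1 alone gave the same value. The corresponding value for Slc2a1 was -0.92 (95% interval -2.28 to 0.44, limma adjusted p = 1.00). The log2 of the summed signal of 15 skeletal muscle markers was 1.71 on EXO-HP 1, against 0.13 and 0.52 in EXO-STD and 0.43 and 0.77 on the other EXO-HP arrays. Such a sum follows its brightest markers, among them Myl1, and not every marker was highest on EXO-HP 1. Pvalb had -1.40 there against -0.98 on EXO-STD 1, and Mylpf -5.48 against -5.36 on EXO-HP 2. Myh4, Myh1 and Casq1 were also higher on EXO-HP 2 than on EXO-HP 1, though each was well above background on only 1 array. Of the 15, 8 were well above background on all 5 arrays, and their part in the Slc2a2 signal was not tested.

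Slc2a3, read at chr6:122678075-122678134 on the minus strand, was not well above background on either EXO-STD array (-7.29 and -7.10). It was well above background on 1 of 3 EXO-HP arrays, EXO-HP 2 (-5.84), and not on EXO-HP 1 (-6.67) or EXO-HP 3 (-7.32). EXO-HP 2 is the array on which the most probes were above background, and the median of the dimmest of 10 equal classes of tested probes lay 1.53 above the EXO-STD mean there, against 0.23 on EXO-HP 1 and 0.74 on EXO-HP 3. No fold is given for Slc2a3, since its EXO-HP mean of -6.61 was below the mean of -6.31 that the dimmest measurable probes reached on the EXO-STD arrays.

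The promoters of both measured transporters are printed because both signals were high on EXO-STD 1 and EXO-HP 2 and lowest on EXO-HP 1, while the sequences differ in composition. Each is the 250 bases before the RefSeq start on GRCm38.p6, plus strand, with ACGTG or its reverse complement CACGT, the core that hypoxia-inducible factors recognise, in capitals. The RefSeq table held a promoter for 7 of the 8 members, without Slc2a3.
Slc2a1, chr4:119108495-119108744: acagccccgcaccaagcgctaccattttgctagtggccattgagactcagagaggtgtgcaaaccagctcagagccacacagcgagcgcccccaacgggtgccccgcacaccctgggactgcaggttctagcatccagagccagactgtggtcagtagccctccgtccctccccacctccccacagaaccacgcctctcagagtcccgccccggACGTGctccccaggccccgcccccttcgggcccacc
Slc2a2, chr3:28697653-28697902: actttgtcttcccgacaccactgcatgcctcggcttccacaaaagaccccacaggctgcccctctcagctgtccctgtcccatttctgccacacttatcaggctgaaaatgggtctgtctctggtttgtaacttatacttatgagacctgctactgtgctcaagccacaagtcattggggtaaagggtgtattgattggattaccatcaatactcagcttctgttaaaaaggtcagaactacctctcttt
The Slc2a1 promoter had 66.4% G and C, a CpG ratio (observed over expected) of 0.51 and 1 match, starting 36 bases before the start site. The Slc2a2 promoter had 47.2% G and C, a CpG ratio of 0.15 and 0 matches. Over all 32851 promoters of that table the median was 52.4% G and C with a CpG ratio of 0.37, and 16.6% held at least 1 match on either strand. A match is a description of letters and not a bound site.

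In the difference between both transporters within an array, a scaling factor of that array cancels. Slc2a1 minus Slc2a2 was 3.57 and 3.45 on the EXO-STD arrays and 3.70, 3.29 and 2.79 on EXO-HP 1, 2 and 3. EXO-HP 3 was lowest and EXO-HP 1 highest, so the groups overlapped, and the group means differed by -0.25 (3.51 ± 0.08, SD, n = 2, against 3.26 ± 0.45, SD, n = 3). Without EXO-HP 3 that difference was -0.02, and in the authors' deposited value table, whose columns share 1 median, it was -0.04. The difference spanned 0.90 over the 5 arrays, against 1.33 for the Slc2a1 signal and 1.46 for that of Slc2a2. With 2 arrays against 3, an exact 2-sided permutation test of the absolute difference cannot go below p = 0.1, or 0.2 where the 1-sided p is doubled, so no such test was run.

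**Figure D2:**
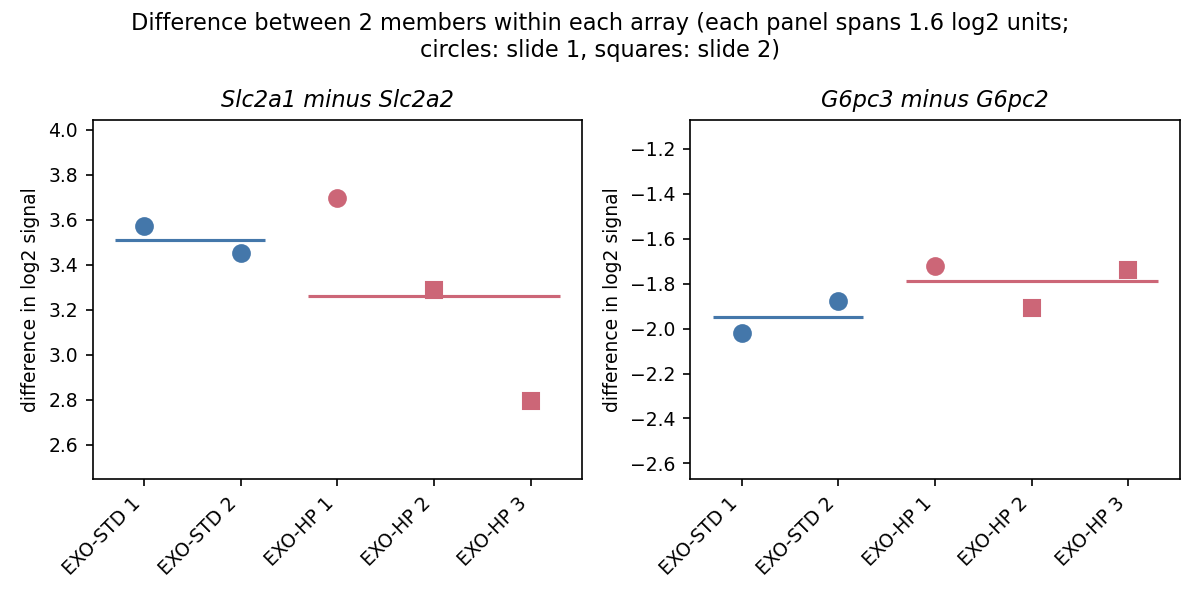
Difference in log2 signal between Slc2a1 and Slc2a2 (left) and between the first probe of G6pc3 and G6pc2 (right) on each array. Blue marks EXO-STD, red EXO-HP, circles slide 1, squares slide 2, and lines are group means. The left panel falls to 2.79 on EXO-HP 3, and the right panel stays between -2.02 and -1.72. Zero is outside both panels, and a difference between probes is not a ratio of transcripts.

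Among the hexokinases, Hk1 was measured on every array by both of its probes and Hk2 on none. Hk1 encodes the widespread, mitochondrion-bound hexokinase. Its first probe, at chr10:61731856-61731915 on the minus strand, had signals of 1.45 and 1.85 on the EXO-STD arrays and 1.59, 1.43 and 2.21 on EXO-HP 1, 2 and 3. EXO-HP 3 was highest and EXO-HP 2 lowest, and the groups overlapped. The log2 fold change was 0.10 (SE 0.31, 95% interval -0.67 to 0.86, limma adjusted p = 1.00), so a change of more than 1.59-fold down or 1.81-fold up lay outside the interval. The second probe, 861 bases away at chr10:61732717-61732776, had -2.03 and -1.96 in EXO-STD and -1.75, -2.13 and -1.86 in EXO-HP 1, 2 and 3. It ranged over only 0.38, and its log2 fold change was 0.08 (SE 0.21, 95% interval -0.44 to 0.60). The sign of both Hk1 values turned with median scaling, to -0.08 and -0.09.

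Hk2, the insulin-regulated hexokinase of muscle and fat, was read at chr6:82675056-82675115 on the minus strand. Its signals were -8.18 and -7.90 on the EXO-STD arrays and -8.12, -8.22 and -9.01 on EXO-HP 1, 2 and 3. None was well above background, so no fold is given. The linear intensities were 4.01 to 9.59, and the dimmest probes well above background on these arrays had normalised signals between -7.20 and -6.13. Signals below background carry no order between arrays. The promoter of Hk2 is printed as that of the member not well above background on all arrays, for comparison with that of Slc2a1.
Hk2, chr6:82774455-82774704, minus strand: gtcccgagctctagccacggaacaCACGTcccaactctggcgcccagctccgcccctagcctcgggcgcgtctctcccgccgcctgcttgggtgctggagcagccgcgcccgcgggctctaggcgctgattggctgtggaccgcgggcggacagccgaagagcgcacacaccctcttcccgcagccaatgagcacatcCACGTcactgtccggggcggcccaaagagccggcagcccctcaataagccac
It had 69.6% G and C and a CpG ratio of 0.85, a ratio reached by 15.4% of all promoters, and 2 matches to ACGTG or CACGT.

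Hk3, known from granulocytes and macrophages, was read at chr13:55107900-55107959 on the minus strand by this oligonucleotide, printed because the whole Hk3 signal rests on it.
Hk3 probe: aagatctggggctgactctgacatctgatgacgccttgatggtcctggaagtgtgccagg
Its signals were -4.51 and -4.77 on the EXO-STD arrays and -4.51, -3.58 and -4.34 on EXO-HP 1, 2 and 3, all well above background. Every EXO-HP array lay above both EXO-STD arrays, but EXO-HP 1 did so by only 0.0014. The group means were -4.64 ± 0.19 (SD, n = 2) and -4.15 ± 0.49 (SD, n = 3), a log2 fold change of 0.50 (SE 0.33, 95% interval -0.33 to 1.32, limma adjusted p = 1.00). It was 0.22 without EXO-HP 2, 0.13 with slide as a block, 0.31 after normexp background correction and 0.24 in the authors' deposited value table. Hk3 was the 1 member probe of 8 whose groups did not overlap, where 17.9% of all tested probes did not overlap (15.1% higher and 2.74% lower in EXO-HP).

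Dim probes among those tested read higher in EXO-HP as a whole. The filter also admits probes well above background on 2 EXO-HP arrays and on no EXO-STD array. Over all tested probes the median log2 fold change was 0.08. It was 0.04 for probes above background on all 5 arrays and 0.09 without a filter. The part of the filter was not tested further. Hk3 fell in the third of 10 classes of tested probes by mean signal, and in that class the median difference from the EXO-STD mean was 0.17, 0.43 and 0.13 on EXO-HP 1, 2 and 3, with 26.0% of probes not overlapping. Hk3 itself stood at 0.13, 1.06 and 0.30. It thus lay above its class on EXO-HP 2 and EXO-HP 3 and below it on EXO-HP 1. Of 7 macrophage and granulocyte markers, 5 were well above background on all 5 arrays and were tested, with a median log2 fold change of 0.14. In 1 of these 5 the groups did not overlap, where 17.9% of all tested probes did not overlap. It was Ptprc (the leukocyte antigen CD45), at -4.99 and -4.82 in EXO-STD and -4.54, -4.14 and -4.36 in EXO-HP. The rest overlapped, with log2 fold changes from 0.08 to 0.36. That of Ptprc was 0.56 (SE 0.22, limma unadjusted p = 0.0438, adjusted p = 0.885). The log2 of the summed signal was 3.42 and 3.52 in EXO-STD and 3.24 to 4.04 in EXO-HP. That sum followed its brightest marker, Itgam, which alone had 3.18 and 3.44 in EXO-STD and 2.90 to 3.95 in EXO-HP. Lyz2, the macrophage lysozyme, was well above background on 0 arrays and S100a8, of granulocytes, on 1. The part of such markers or of slide in the Hk3 signal was not tested.

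**Figure D3:**
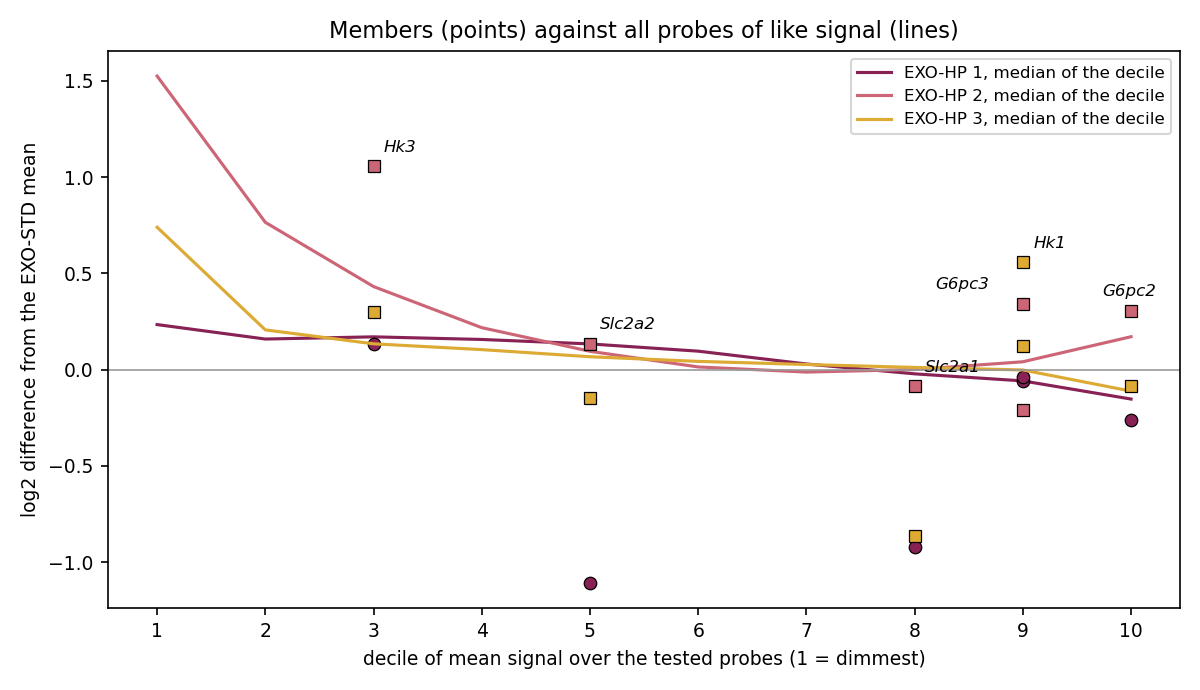
Log2 difference from the EXO-STD mean on each EXO-HP array, against the class of mean signal (1 is the dimmest of 10 equal classes of tested probes). Lines are the medians of all probes of a class, points the members by their probe of highest mean signal, coloured by array, with circles for slide 1 and squares for slide 2. The line of EXO-HP 2 starts at 1.53 and is near 0 from the sixth class to the ninth. Slc2a1 lies far below the lines on EXO-HP 1 and EXO-HP 3, and Slc2a2 on EXO-HP 1.

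Both glucose-6-phosphatase genes were measured on every array, and neither passed the test. G6pc2, whose enzyme removes phosphate from glucose-6-phosphate in beta cells, was read at chr2:69065947-69066006 on the plus strand. Its signals were 4.15 and 3.76 in EXO-STD and 3.69, 4.26 and 3.86 in EXO-HP 1, 2 and 3. EXO-HP 2 was highest and EXO-HP 1 lowest, so EXO-HP spanned the whole range of EXO-STD. The means were 3.95 ± 0.27 (SD, n = 2) and 3.94 ± 0.29 (SD, n = 3), a log2 fold change of -0.02 (SE 0.26, 95% interval -0.67 to 0.64, limma adjusted p = 1.00). The interval still allows 1.59-fold lower or 1.56-fold higher signal, so no difference was detectable at this precision, which is not a showing of equality. With slide as a block the value was -0.26. Much of the array-to-array variation of G6pc2 was shared by bright probes: relative to the median of the brightest of the 10 classes, its deviations were 0.01 and -0.01 in EXO-STD and -0.11, 0.13 and 0.03 in EXO-HP.

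G6pc3, whose loss in people causes a neutropenia, was read by 2 probes 101 bases apart. The first, at chr11:102055338-102055395 on the plus strand, had 2.12 and 1.88 in EXO-STD and 1.97, 2.35 and 2.13 in EXO-HP 1, 2 and 3. EXO-HP 2 was again the highest, and the groups overlapped. Its log2 fold change was 0.14 (SE 0.22, 95% interval -0.40 to 0.69). The second, at chr11:102055237-102055296, had 1.50 and 0.88 against 1.07, 1.30 and 1.09, with a log2 fold change of -0.04 (SE 0.26, 95% interval -0.68 to 0.60). The probes disagreed in sign, and both values were smaller than the standard error.

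G6pc3 by its first probe minus G6pc2 within an array was -2.02 and -1.88 in EXO-STD and -1.72, -1.91 and -1.74 in EXO-HP 1, 2 and 3. EXO-HP 2 lay between the EXO-STD arrays, and EXO-HP 1 and EXO-HP 3 were above both. The difference of group means was 0.16, and 0.07 when both G6pc3 probes were averaged. The promoters are printed because this pair varied by only 0.30 against each other over the arrays and their upstream sequences differ in composition. All 3 lie on the plus strand. Every ACGTG or CACGT is in capitals, whether or not it is part of CACGTG, the palindromic E-box.
G6pc2, first RefSeq start, chr2:69210823-69211072: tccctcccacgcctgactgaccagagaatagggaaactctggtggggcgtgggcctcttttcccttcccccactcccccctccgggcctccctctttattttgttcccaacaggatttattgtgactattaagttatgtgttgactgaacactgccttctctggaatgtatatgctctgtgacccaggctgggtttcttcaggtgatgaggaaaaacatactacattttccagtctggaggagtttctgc
G6pc2, second RefSeq start, chr2:69219699-69219948: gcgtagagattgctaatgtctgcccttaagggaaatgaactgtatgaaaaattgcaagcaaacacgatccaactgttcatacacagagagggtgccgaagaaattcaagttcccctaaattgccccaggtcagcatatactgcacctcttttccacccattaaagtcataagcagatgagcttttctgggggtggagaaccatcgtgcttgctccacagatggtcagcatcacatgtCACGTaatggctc
G6pc3, chr11:102189449-102189698: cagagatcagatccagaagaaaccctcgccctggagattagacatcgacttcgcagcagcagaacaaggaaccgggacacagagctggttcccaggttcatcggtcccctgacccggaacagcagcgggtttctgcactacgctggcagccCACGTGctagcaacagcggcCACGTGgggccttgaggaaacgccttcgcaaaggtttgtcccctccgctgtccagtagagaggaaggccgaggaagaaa
The G6pc3 promoter held 2 copies of CACGTG, which only 0.429% of all promoters do, while 6.02% hold at least 1. Since CACGTG is its own reverse complement, each copy also counts on both strands as ACGTG. The G6pc2 promoters held 0 and 1 matches to ACGTG or CACGT, and 0 to CACGTG. The CpG ratio was 0.69 for G6pc3 against 0.19 and 0.38 for G6pc2.

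**Figure D4:**
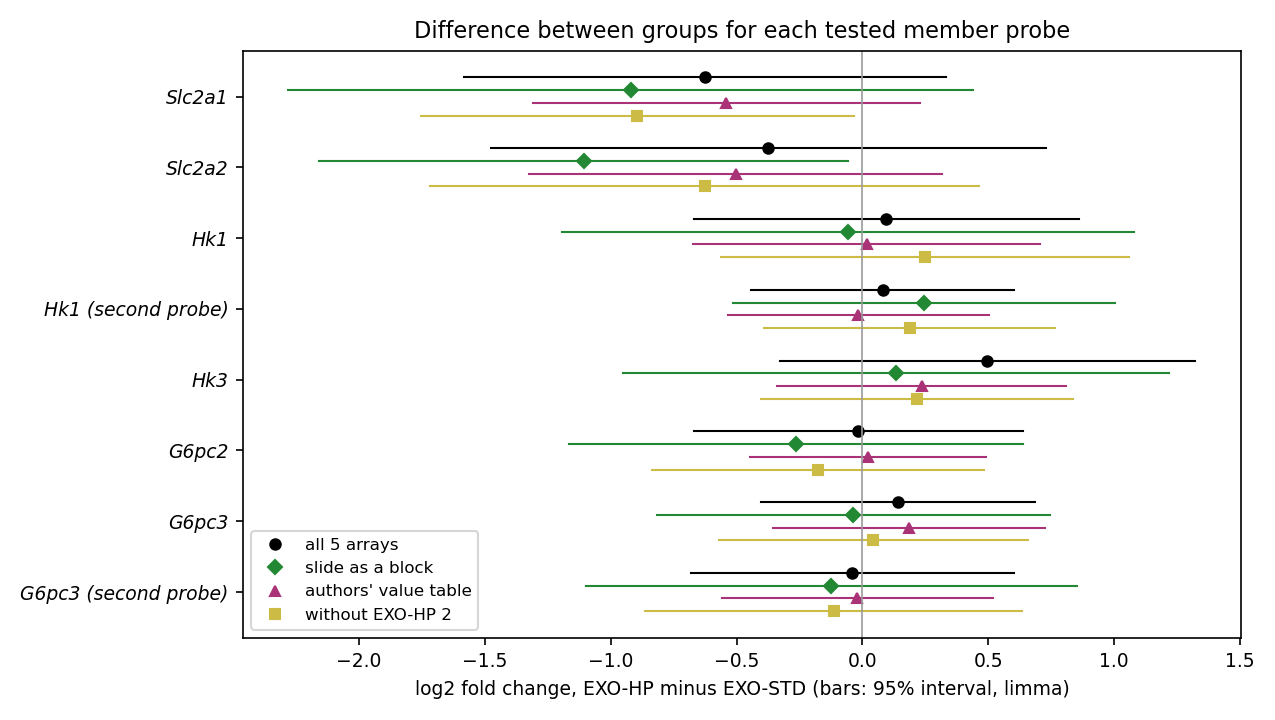
Log2 fold change, EXO-HP minus EXO-STD, of the 8 tested member probes with 95% intervals from limma, over all 5 arrays, with slide as a block, in the authors' deposited value table and without EXO-HP 2. With all 5 arrays every interval spans 0. The interval of Slc2a2 lies below 0 with slide as a block, and that of Slc2a1 without EXO-HP 2, both with adjusted p = 1.00 in limma.

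The member probes did not all order the arrays alike. In 6 of the 8 tested probes, those of Slc2a1, Slc2a2, Hk3, G6pc2 and G6pc3, EXO-STD 1 exceeded EXO-STD 2 and EXO-HP 2 was the highest EXO-HP array. In both Hk1 probes EXO-STD 1 was below EXO-STD 2, by only 0.06 for the second, and EXO-HP 2 was the lowest EXO-HP array. The share of all tested probes with either order was not counted. In the brightest of the 10 classes the median difference from the EXO-STD mean was 0.19 and -0.19 on EXO-STD 1 and 2. It was -0.15, 0.17 and -0.11 on EXO-HP 1, 2 and 3. In the dimmest class it was -0.10 and 0.10 on EXO-STD 1 and 2. These probes share the arrays and their scaling, and the order is given as a description. The 3 members whose signal spanned at least 1 log2 unit and was well above background on all arrays were Slc2a1, Slc2a2 and Hk3. For each, the genes with the most similar centred profile over the 5 arrays were sought among 18850 genes, by the root mean square difference. They were Fam162a (0.07), Ankrd37 (0.10) and 1700016C15Rik (0.11) for Slc2a1, where the median gene stood at 0.55. For Slc2a2 they were Smim14 (0.08), Mob2 (0.09) and Eif5al3 (0.10), with a median of 0.55, and for Hk3 Anxa3 (0.05), Esd (0.06) and Use1 (0.06), with a median of 0.42. With 5 arrays many profiles come close by their number alone, and no test was made of them.

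A wider list of 34 genes of glucose handling, of which 33 were found on the array and 31 tested, held further transporters, the enzymes around glucose-6-phosphate, glycogen enzymes and glucose-responsive regulators. None passed the adjusted threshold in limma and 0 had an unadjusted p under 0.05. By sign, 13 were higher and 18 lower, where 37.1% of all tested probes were lower. Their median log2 fold change was -0.02, against 0.08 over all tested probes. Both baselines change with signal. From the seventh to the tenth of the 10 classes, 47.5% to 59.6% of probes were lower, and class medians ran from 0.01 to -0.04. The list was not compared with probes of like signal. With median scaling 25 of the 31 were lower. The smallest unadjusted p belonged to Pgm5, a phosphoglucomutase relative without known enzyme activity, with signals of -0.18 and -0.33 in EXO-STD and -0.25, -1.07 and -0.95 in EXO-HP. Its lower values were those of slide 2, and the log2 fold change was -0.51 (SE 0.31, limma adjusted p = 1.00). Slc5a2, the kidney sodium-glucose transporter SGLT2, followed with 0.62 (SE 0.39), but it was well above background on only 1 of 2 EXO-STD arrays, not on EXO-STD 2, so this value is uncertain. Pgm2, of the phosphoglucomutase family, had -0.26 (SE 0.19), at -2.04 and -1.81 against -2.22 to -2.16. It was 1 of 31 genes whose groups did not overlap, against 17.9% of all tested probes (2.74% lower in EXO-HP). Slc2a12, which encodes GLUT12, had 0.29 (SE 0.25), and Gpi1, the isomerase of glucose-6-phosphate, had -0.33 (SE 0.28). All 5 of these had an adjusted p of 1.00 in limma.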

How the data were processed

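RNA of 5 MIN6 samples was measured on 1-colour Agilent arrays, 1 per sample. Spot intensity values were made by the authors, per the file headers with Feature Extraction 10.7.3.1. Version 9.1 of that program and limma stand in the submitters' processing notes. The processed intensity is background-subtracted and not scaled between arrays, per the file headers. The deposited value table holds log2 values with a median of 7.93 on each array and the same ranks as mean signal minus local background (Spearman rho = 1); it is uncentred and runs in the direction of the scanner signals.

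Outlier spots were left out, log2 was taken, repeated spots were averaged per probe, and values were set relative to the array's 75th percentile. A probe was tested if well above background on 2 or more arrays of either group: 31945 of 39429, leaving out 7374 as dim and 110 without a usable spot. Groups were compared with limma 3.58.1 (lmFit, eBayes, R 4.3.3) without covariates, with Benjamini-Hochberg adjustment over all tested probes. The script was tested on simulated data. For genes with 2 probes, the one of highest mean signal is called first. Symbols were updated through RefSeq of GRCm38.p6, which named 66.1% of probes. The number of arrays limits the precision: the median standard error was 0.27.

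Named were all members, the 5 genes of the wider list with the smallest unadjusted p and, for members that spanned at least 1 log2 unit, the 3 most similar genes with 1 symbol. Myl1, Pvalb, Mylpf, Myh4, Myh1, Casq1, Ptprc, Itgam, Lyz2, S100a8, Ins1 and Ins2 were named after their values were seen. Members, lists and alternatives were chosen with earlier results of these data known. The alternatives were other background correction, scaling, filters and blocks, the authors' table, averaging a gene's probes and leaving out each array.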

Additional observations from a re-analysis of the deposited data

How the results depend on the processing

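No member passed the adjusted threshold under any alternative; the smallest adjusted p was 0.69 (Hk3 without EXO-HP 1). Slc2a1, Slc2a2 and Hk3 kept their direction under all 14 alternatives, which are not 14 separate checks. The filters leave a probe's own fold change as it is. Slide as a block gives the fold change of slide 1 alone, and the replicate block that of leaving out EXO-HP 3. Slc2a2 came as near to 0 as -0.0066, without EXO-HP 1. Over all probes, slide 1 alone gave 94 adjusted calls and leaving out 1 array 0 to 3 (3 without EXO-STD 1), none a member. Unadjusted p under 0.05 was reached by 1102 probes with normexp, 867 with quantile normalisation, 631 in the authors' table, 1088 with probes above background on all 5 arrays, 843 with slide as a block, 981 on slide 1 alone, and 957 (without EXO-HP 3) to 3412 (without EXO-HP 1) when 1 array was left out. Of the probes under it, 95.8% were higher in EXO-HP, against 84.2% with median scaling, 74.6% with quantile normalisation, 73.2% in the authors' table and 59.3% with slide as a block. With median scaling the median probe stood at -0.10 in place of 0.08, with 7 of 8 member probes lower.

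Values near 0 changed sign. G6pc2 was 0.0046 with normexp, 0.018 with quantile normalisation, 0.022 in the authors' table and -0.21 to 0.18 with 1 array left out. The first Hk1 probe was -0.079 with median scaling, -0.059 with slide as a block and on slide 1 alone, and -0.14 to 0.30 with 1 array left out. The second was -0.094 with median scaling, -0.010 with quantile normalisation, -0.016 in the authors' table and -0.00046 to 0.19 with 1 array left out. The first G6pc3 probe was -0.032 with median scaling and -0.037 with slide as a block and on slide 1 alone, and the second ranged from -0.35 to 0.27 with 1 array left out. The cause was not tested. Where leaving out an array left 1 EXO-STD array, it was assumed to vary like the EXO-HP arrays.

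The labels do not say whether same-numbered samples were paired. Deviations of same-numbered arrays from their group means correlated at 0.02 (replicate 1) and -0.06 (replicate 2). With 2 EXO-STD arrays the deviations of 1 mirror those of the other. The values are thus not separate checks and cannot exclude a pairing. With the replicate block, 1663 probes had an unadjusted p under 0.05 and none passed adjustment, the first Hk1 probe was -0.14 and G6pc2 0.020.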
